A study of Mus musculus with 12 samples.

Results

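The older L1Md elements are mouse LINE-1 (L1) retrotransposon copies whose annotated name begins with L1Md but does not belong to the A, T or G lineages. They were chosen by name from the repeat features of a reduced representation bisulfite sequencing (RRBS) data set, and each had to carry a methylation level in all 12 libraries. The choice left 7149 of the 12345 older L1Md features seen in at least 1 library (57.9%), which are 20.6% of the 34707 repeat features common to all libraries. A feature here is an element name with a stretch of the L1 consensus, so that genomic copies with the same name and the same consensus stretch share 1 value, and no position in the genome is attached to it. The methylation level is the percentage of CG calls read as methylated, and differences are given in percentage points.

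The 12 libraries form 6 groups of 2, all of strain C57BL6. Female embryonic stem cells (ESCs) came from fertilized embryos. Parthenogenetic embryonic stem cells (pESCs) came from activated oocytes, which have no father. Primordial germ cells (PGCs), the embryonic precursors of eggs and sperm, were taken from embryos of day 9.5 (E9.5) or day 12.5 (E12.5). The embryos were female, as the study's methods state. PGC-like cells (PGCLCs) were made in culture from ESCs or pESCs by 2 days of induction to epiblast-like cells with bFGF and activin A and 4 days with BMP4, SCF, EGF and LIF, and were sorted as CD61 and SSEA1 double positive cells. The study describes the cell lines as carrying a GFP transgene driven by an actin promoter. The labels do not say whether the 2 libraries of a group came from separate lines, cultures or litters, so that the spread between them may be technical.

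An intact L1 element begins with a promoter in its 5′ untranslated region, continues with the open reading frames ORF1 and ORF2 and ends in a 3′ untranslated region. ORF2 encodes the endonuclease and reverse transcriptase that copy the element into new sites. Copying starts at the 3′ end and often stops early, so that many genomic copies are fragments without the promoter. In the mouse the A, T and G lineages hold the copies that still move, while the F, N, V, Fanc and Mus lineages are mostly degraded remains of earlier waves. Cells keep L1 promoters silent largely by cytosine methylation, which is low in naive embryonic stem cells, is regained in the epiblast and is erased again in PGCs on their way to the gonad.

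The 7149 elements fell into 13 subfamilies. The F lineage made up most of them, with 1557 L1MdF_I, 314 L1MdF_II, 1889 L1MdF_III, 1086 L1MdF_IV and 1288 L1MdF_V elements. The others were 240 L1MdFanc_I, 95 L1MdFanc_II, 69 L1MdMus_I, 42 L1MdMus_II, 200 L1MdN_I, 211 L1MdV_I, 61 L1MdV_II and 97 L1MdV_III elements. By their place in the consensus, 1428 were near-full-length (start at or before base 1000 and end beyond base 5000), 1721 were 5′ fragments (the same start, an earlier end), 238 were internal and 3762 were 3′ fragments (start beyond base 4000). These 4 forms were drawn up after the levels had been seen. The forms differed between subfamilies, since 64.7% of L1MdF_I elements but 15.0% of L1MdN_I elements were 3′ fragments.

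The libraries listed between 144375 and 166476 features. The parental labels were checked at the promoters of Mest and Snrpn, which are methylated on the maternal chromosome. The Mest level was 6.73% and 6.76% in the ESC libraries and 47.6% and 44.7% in the pESC libraries, and the Snrpn level was 34.5% and 44.8% against 82.8% and 83.2%. In E9.5 PGCs Mest was at 48.6% and 49.0% and Snrpn at 59.2% and 66.5%. The check thus shows only that pESCs were above ESCs, since at Mest the pESC level was near that of E9.5 PGCs and the ESC level far below it. The ESC libraries stood apart from each other and differed by 10 points or more at 26.0% of older L1Md elements, compared with 2.41% to 6.29% in the other groups. Values are therefore given for each library, and those that rest on ESCs carry this spread. Read numbers did not come with the levels, so that the depth behind a value is unknown and levels of 0% or 100% can rest on few reads.

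Older L1Md elements were most methylated in E9.5 PGCs and least in E12.5 PGCs. Their mean level was 65.4% and 65.3% in the 2 E9.5 PGC libraries and 47% and 47.3% in the E12.5 PGC libraries. The ESC-PGCLC libraries were at 56.7% and 56.8% and the pESC-PGCLC libraries at 53.8% and 53.1%, so that both kinds of PGCLC lay between the 2 stages of PGC without overlap. The ESC libraries (55.8% and 49.0%) spanned both pESC libraries (52.6% and 51.4%), and these 2 groups are not ordered. In the ESC libraries 165 and 202 elements were below 20%, compared with 38 and 42 in E9.5 PGCs.

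Compared with other repeats, the older elements had a higher level in stem cells and a similar one in E9.5 PGCs. In E9.5 PGCs they were at 65.4% ± 0.07 (SD, n = 2) and all 27558 other repeat features at 65.0% ± 0.13, a gap of 0.32 and 0.41 points in the 2 libraries. In stem cells the gap was 6.31 and 8.51 points in ESCs and 7.09 and 7.95 points in pESCs. It was positive in 12 of 12 libraries (mean 4.08 points, exact sign-flip test over libraries, two-sided p = 0.000488, the smallest this design allows). By medians over elements the E9.5 PGC libraries had the other order, at 65.8% and 65.9% for older elements and 67.5% and 67.4% for other repeats. The gap of means was larger in the 4 stem cell libraries (mean 7.46 points) than in the 8 PGC and PGCLC libraries (mean 2.39 points, exact permutation test, two-sided p = 0.00404, the smallest 4 against 8 libraries can give). E12.5 PGCs held 72.1% of the E9.5 level at older L1Md elements, 68.2% at other repeats and 67.1% at the 1183 elements of Lx, an L1 family of still earlier origin, shares that were not tested against each other. The split into 4 and 8 libraries was not among the planned tests. Libraries of the same group entered these tests as separate values, so that both p-values treat the 2 libraries of a group as independent.

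The gap to the 7438 young A, T and G elements was small and negative, with a mean of −1.55 points (0 of 12 libraries positive, exact sign-flip test, two-sided p = 0.000488). This p-value also treats the 2 libraries of a group as independent. By medians over elements the first ESC library (54.9% older, 54.7% young) and the second pESC library (50.1% and 50%) had the other order. By form the sign varied. Among near-full-length copies the older elements were at 73.2% in E9.5 PGCs and the young ones at 77.6%, and in E12.5 PGCs the values were 53.6% and 58.6%. Among 3′ fragments the order was the other way, with 59.6% for older and 57.0% for young elements in E9.5 PGCs and 42.5% and 40.9% in E12.5 PGCs. In stem cells the near-full-length older elements lay slightly above the young ones by group mean, at 58.6% and 57.8% in ESCs and 58.1% and 57.1% in pESCs. The first library of each of these groups had the other order, at 62.4% and 63.2% in ESCs and 59.1% and 59.3% in pESCs. The comparison by form was made after the values had been seen and was not tested.

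**Figure D1:**
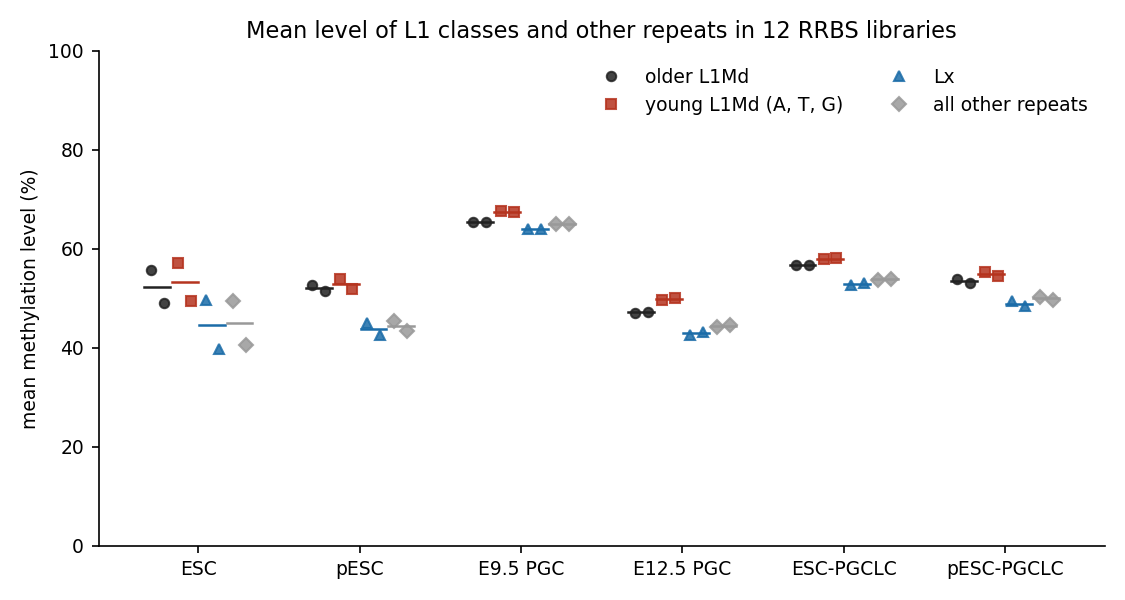
Mean methylation level (%) of older L1Md elements, young L1Md elements, Lx elements and all other repeats in each group. Each symbol is 1 library and each short line the mean of the 2 libraries; older L1Md elements lie at 65.4% in E9.5 PGCs and 47.2% in E12.5 PGCs, close to young L1Md, and above other repeats in stem cells.

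The position of an element in the consensus went with its level in each library. Position here is the start of the element, which also went with its length, and start and length were not tested apart. Elements that start within the first 1000 bases, where the promoter of an intact element lies, exceeded those that start beyond base 4000 by 11 and 10.3 points in ESCs, 11.2 and 10.02 points in pESCs and 12.8 and 12.8 points in E9.5 PGCs. At E12.5 it was 10.5 and 10.2 points. The ESC-PGCLC libraries gave 12 and 11.8 points, those of pESC-PGCLCs 11.4 and 11.4 points. The gap was positive in 12 of 12 libraries (mean 11.3 points, exact sign-flip test, two-sided p = 0.000488). Here too the p-value treats the 2 libraries of a group as independent, and it does not measure the spread over elements. Across elements, the correlation of the consensus start with the level was r = −0.51 in E9.5 PGCs and r = −0.39 in ESCs. It is a description over 7149 elements that share libraries and may share genomic neighbourhoods, which the features do not show.

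The fall along the consensus was a step rather than a slope. In E9.5 PGCs the 2960 elements that start within the first 500 bases averaged 72.6%, and the next bins, which end at bases 1000 and 2000, were at 69.5% and 68.8%. Levels were 59.6% in the bin that ends at 4000, 59.7% in the bin that ends at 6000 and 59.5% beyond. The same step lay in E12.5 PGCs, where the first 500 bases gave 53% and starts beyond 6000 gave 42.3%, and in ESC-PGCLCs, where the values were 63.5% and 51.1%. The bins that end at 1000, 2000 and 4000 held 189, 82 and 156 elements, far fewer than those at the ends. L1MdF_I supplied 93 of the 238 internal elements. The median span was 4010 bases for starts within the first 500, 835 in the bin that ends at 6000 and 460.5 beyond. A level pools the calls over the whole stretch, so that of a near-full-length element is not that of its 5′ end alone. In E9.5 PGCs 5′ fragments (median span 1609 bases) averaged 71.8% and near-full-length elements (5622.5 bases) 73.2%.

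**Figure D2:**
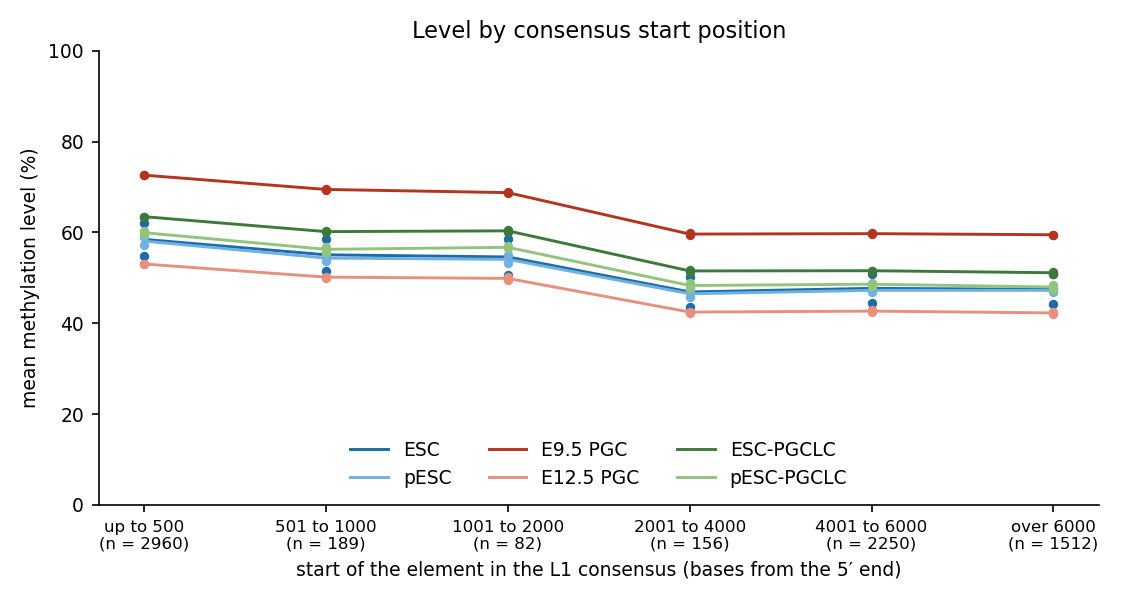
Mean methylation level (%) of older L1Md elements by the consensus base at which they start, for the 6 groups. Points are single libraries and lines join group means; in all groups the level is higher for starts up to 2000 than for later starts, and the E9.5 PGC line runs from 72.6% to 59.5%.

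The step held within most subfamilies but not in all. The mean over the gaps of 11 subfamilies with at least 20 elements at each end was 7.74 points (5.98 to 9.53 points, positive in 12 of 12 libraries). It was widest in L1MdF_II (mean 16.7 points) and L1MdF_III (14.9 points) and narrow in L1MdFanc_I (3.92 points) and L1MdFanc_II (3.73 points). In L1MdV_III it was near 0, between −0.93 and 2.30 points. In L1MdN_I it was turned round in stem cells, at −20.9 and −19.2 points in ESCs and −19.3 and −20.3 points in pESCs, while it was 8.26 and 6.72 points in E9.5 PGCs and 5.54 and 5.36 points in E12.5 PGCs. The ESC-PGCLC libraries had a small gap of 1.83 and 1.43 points, and in those of pESC origin it was −1.98 and 0.73 points.

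Subfamilies kept a similar order in PGCs and a different one in stem cells. Their means pool all forms, and the share of 3′ fragments was 15.0% in L1MdN_I, 25.5% in L1MdF_II, 27.8% in L1MdV_III and 58.5% in L1MdF_III. In E9.5 PGCs the highest means were those of L1MdN_I (73.2% and 73.2%) and, just under it, L1MdF_II (72.7% and 72.8%). L1MdFanc_II (69.2% and 68.5%), L1MdMus_I (68.1% and 68.8%) and L1MdFanc_I (67.7% and 67.9%) followed and did not separate cleanly. The lowest were L1MdV_III (63.8% and 63.1%), L1MdF_III (63.6% and 63.5%), L1MdF_V (63.7% and 63.6%) and L1MdF_IV (63.2% and 63.0%), whose order is not settled by these libraries except that L1MdF_IV lay under L1MdF_III and L1MdF_V. In E12.5 PGCs L1MdF_II (52.9% and 52.1%) and L1MdN_I (51.4% and 51.5%) were again on top and L1MdV_III (44.0% and 44.7%) was lowest.

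In stem cells L1MdN_I moved from the top of this order, in which all forms are pooled, to the bottom. Its mean was 40.8% and 34.7% in ESCs and 37.2% and 36.5% in pESCs. The next lowest, L1MdV_III, was at 46.2% and 37.6% in ESCs and 41.0% and 40.2% in pESCs. All other subfamilies lay between 45% and 62.3% in the 4 stem cell libraries. In L1MdF_II, the highest subfamily there beside L1MdFanc_I, the level was 62.3% and 51.8% in ESCs and 59.0% and 54.7% in pESCs. The distance from L1MdF_II to L1MdV_III, a pair picked for its values, averaged 15.7 points in stem cells and 9.18 points in PGCs and PGCLCs.

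**Figure D3:**
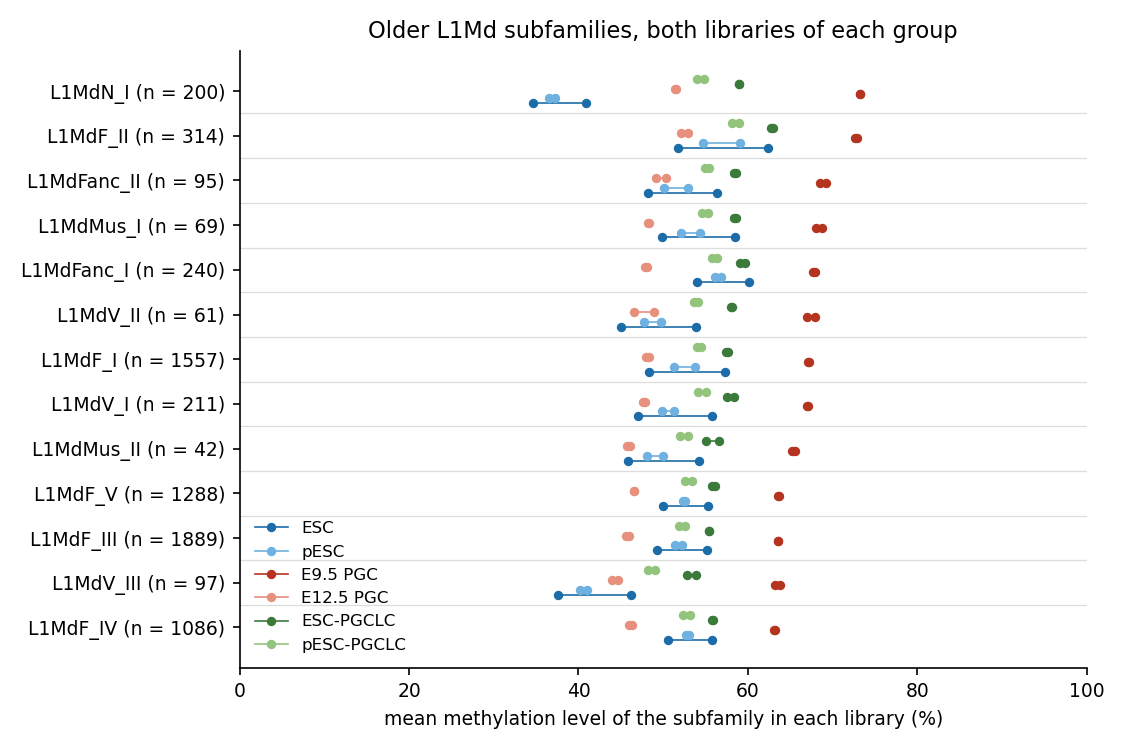
Mean methylation level (%) of the 13 older L1Md subfamilies, ordered by their level in E9.5 PGCs. Each pair of joined points is the 2 libraries of a group; L1MdN_I is highest in E9.5 PGCs (73.2%) and lowest in ESCs (37.8%) and pESCs (36.9%).

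The stem cell deficit of L1MdN_I lay in copies that keep their 5′ end. The 77 near-full-length L1MdN_I elements averaged 28.7% and 23.5% in ESCs and 25.3% and 25% in pESCs, but 73.7% and 73.0% in E9.5 PGCs. At E12.5 they were at 50.1% and 50.3%. They stood at 55.9% and 55.5% among ESC-PGCLCs and at 51.0% and 50.4% among pESC-PGCLCs. Against the 1351 near-full-length elements of the other 12 subfamilies the gap was −35.6 and −33.1 points in ESCs and −35.8 and −33.9 points in pESCs. It was 0.45 and −0.19 points in E9.5 PGCs, −3.68 and −3.44 points in E12.5 PGCs, −8.41 and −8.83 points for ESC-PGCLCs and −10.1 and −10.04 points for pESC-PGCLCs. In E9.5 PGCs the near-full-length elements of L1MdF_II (78.5% and 78.6%), L1MdF_I (77.6% and 77.2%) and L1MdMus_II (75.2% and 75.2%) lay above those of L1MdN_I. The top place of L1MdN_I there was thus one of all forms pooled. L1MdN_I was singled out after its values had been seen, so no test is given.

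The 91 L1MdN_I 5′ fragments had about that pattern at a smaller size, with a gap of −17.3 and −16.9 points in ESCs, −17.7 and −17.3 points in pESCs and 3.63 and 3.89 points in E9.5 PGCs. The 30 L1MdN_I 3′ fragments, which lack the promoter, lay above the 3′ fragments of the other subfamilies in each library, by 4.28 to 8.06 points. Their level was 58.4% and 50.8% in ESCs and 53.5% and 53.6% in pESCs. L1MdV_III had no such split, since its 65 5′ fragments (44.2% and 36.1% in ESCs) and its 27 3′ fragments (45.5% and 37.4%) were both low.

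**Figure D4:**
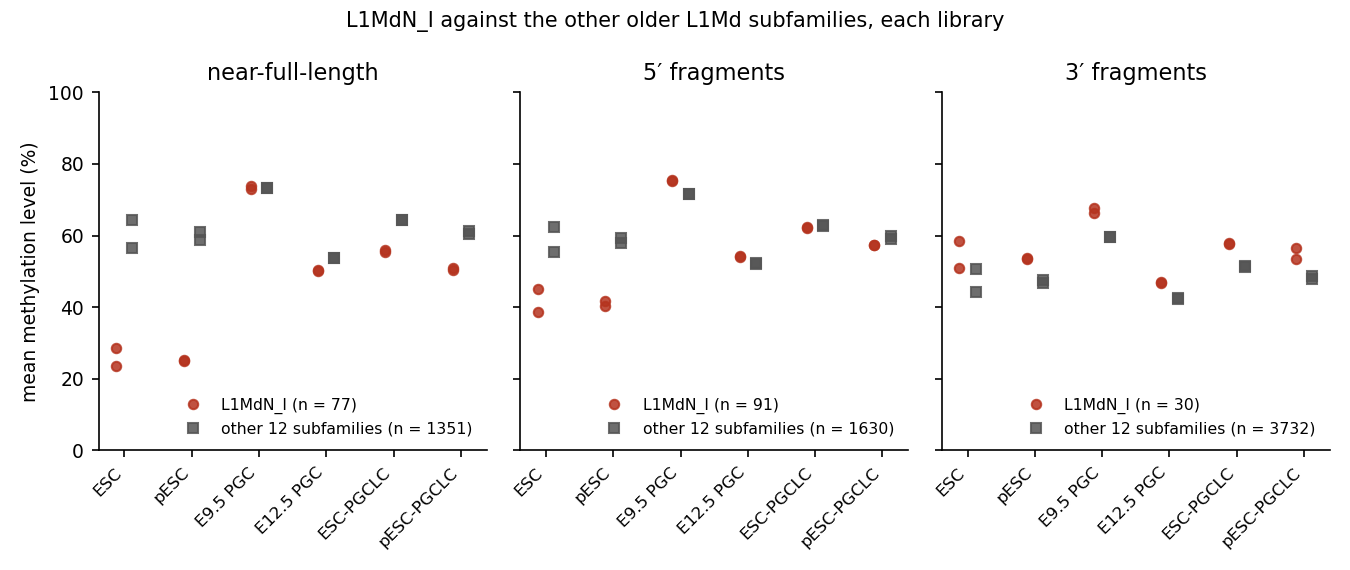
Mean methylation level (%) of L1MdN_I (circles) and of the other 12 older subfamilies (squares) for near-full-length elements, 5′ fragments and 3′ fragments, 1 symbol per library. In ESCs and pESCs near-full-length L1MdN_I lies at 23.5% to 28.7%, far below the other subfamilies, while in E9.5 PGCs both are near 73%, and 3′ fragments of L1MdN_I lie above the others in all 6 groups.

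Single near-full-length L1MdN_I elements covered a wide range in stem cells and a narrow one in PGCs. In ESCs they ran from 1.83% to 71.6% with a median of 21.9%, and the middle 50% of elements lay between 8.34% and 38.2%. In E9.5 PGCs they ran from 34.8% to 86.0% with a median of 75.7%, and the middle 50% lay between 70.9% and 79.2%. In ESCs 34 of the 77 were below 20%, and in E9.5 PGCs 0 were below 20% and 69 were above 60%. Among the 1351 other near-full-length elements, 15 were below 20% in ESCs.

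Elements below 20% in all 4 stem cell libraries numbered 136 of 7149 (1.90%), and 58 of these were L1MdN_I (29.0% of that subfamily), although L1MdN_I is 2.80% of the elements. Of the 58, 55 were above 60% in both E9.5 PGC libraries. Of the 78 low elements of other subfamilies, 29 were above 60% in E9.5 PGCs, 19 of them L1MdF_III. Some of the young elements were at a similar level, since the 86 near-full-length L1MdTf_I elements were at 29.6% and 22.3% in ESCs, 25.2% and 24.6% in pESCs and 77.6% and 77.6% in E9.5 PGCs.

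**Figure D5:**
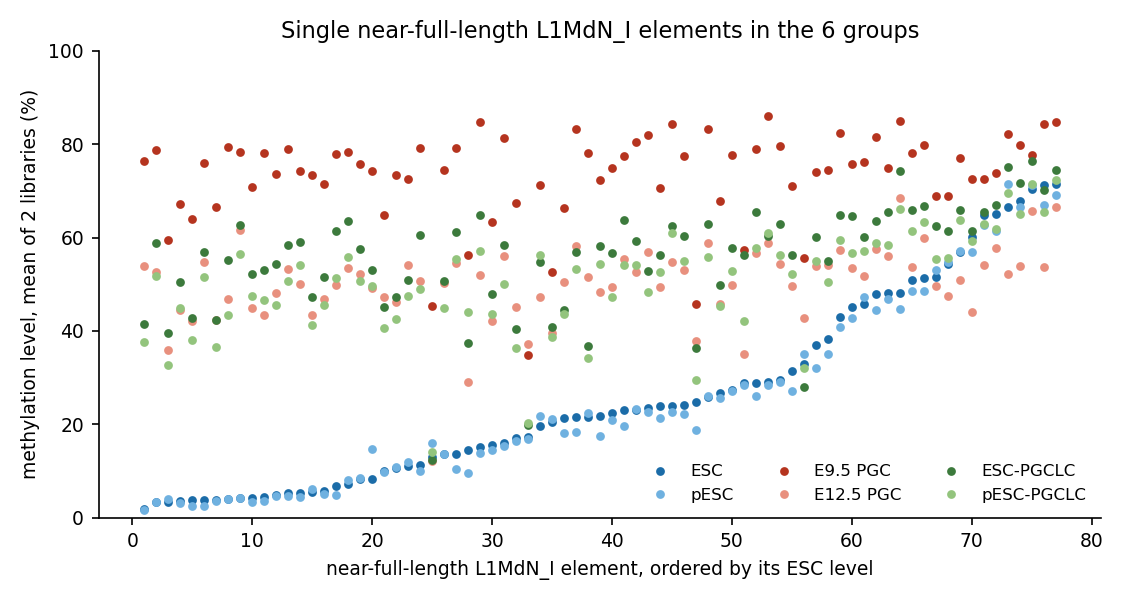
Methylation level (%, mean of 2 libraries) of each of the 77 near-full-length L1MdN_I elements in the 6 groups, ordered by the ESC level. The ESC points run from 1.83% to 71.6% and the pESC points follow them, while the E9.5 PGC points lie between 34.8% and 86.0% along the whole order.

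To compare ESCs and pESCs, and PGCs with PGCLCs, single elements were tested with limma across all features, on the log2 odds of the level, and were called with a Benjamini-Hochberg adjusted p under 0.05 together with a difference of at least 10 points. The comparisons with E9.5 PGCs share those 2 libraries, those with E12.5 PGCs share theirs, and each kind of PGCLC enters several comparisons. For the mean level over all older elements only the exact permutation test applies, and 2 against 2 libraries cannot give a p below 0.333.

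Between pESCs and ESCs limma called 0 of 7149 older elements, where the share over all features was 0%. At an unadjusted p under 0.05 there were 20. The mean level differed by −0.38 points, and the libraries overlapped (exact permutation test, p = 1). Leaving out a pESC library gave 14 or 6 calls. Near-full-length L1MdN_I elements differed by −0.97 points between these groups, less than the spread between the ESC libraries.

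From E9.5 to E12.5 PGCs the loss reached nearly all older elements. The mean difference was −18.2 points, and the libraries did not overlap (exact permutation test, p = 0.333, the smallest possible). Of 7149 elements 6529 were called lower (91.3%), compared with 49.6% of all features and 84.8% of repeats, and 1 was called higher, where 0.035% of all features were. By form, 96.4% of near-full-length elements, 95.6% of 5′ fragments and 87.6% of 3′ fragments were called lower. By subfamily the share ran from 85.3% in L1MdV_I to 95.0% in L1MdN_I, where the mean difference was −21.7 points. All features had a median difference of −11.5 points and older elements one of −18.0 points. The starting levels differed, with an E9.5 mean of 65.4% at older elements and 36.4% over all features. As a share of that level, E12.5 PGCs held 72.1% at older elements and 66.7% over all features, so the proportional loss was not larger at older elements. When each library was centred on the median of its own features, 398 older elements were called lower and 54 higher.

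The single element called higher was the L1MdF_I 3′ fragment of consensus bases 5744 to 6573. It was at 20% in both E9.5 PGC libraries and at 60% and 42.4% in the E12.5 PGC libraries, and lay between 53.3% and 61.1% in stem cells. Among the largest falls was the L1MdMus_II 3′ fragment of bases 6459 to 6564, with 100% and 94.1% in E9.5 PGCs and 36.8% and 55.6% in E12.5 PGCs (adjusted p = 0.0092 by limma). That call was lost without the first E12.5 PGC library. The other 2 of the 3 largest falls were also 3′ fragments, of L1MdV_I (bases 6028 to 6272) and L1MdV_II (bases 6499 to 6608), and each was at 100% in both E9.5 PGC libraries. The L1MdV_I call was lost without any 1 of the 4 libraries and the L1MdV_II call without the first E12.5 PGC library.

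Both kinds of PGCLC were below E9.5 PGCs. In ESC-PGCLCs the mean difference was −8.64 points and 2153 elements were called lower (30.1%), near the 29.6% of all features and under the 41.1% of repeats. In pESC-PGCLCs it was −11.9 points and 4256 elements were called lower (59.5%), compared with 40.2% of all features and 62.6% of repeats. With libraries centred on their medians the calls were 146 lower and 162 higher for ESC-PGCLCs and 248 lower and 122 higher for pESC-PGCLCs. L1MdN_I had the largest shortfall of the subfamilies, with mean differences of −14.2 and −18.8 points from E9.5 PGCs, and 123 and 165 of its 200 elements were called lower.

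The most extreme element of these comparisons was the L1MdF_III 5′ fragment of consensus bases 548 to 3083. It was at 100% in both E9.5 PGC libraries and at 86.4% and 87.5% in E12.5 PGCs. It was at 0% and 0% in ESCs, 9.09% and 0% in pESCs, 20% and 0% among ESC-PGCLCs and 50% and 33.3% among pESC-PGCLCs. Cultured cells and PGCs did not overlap at this element, but the number of reads behind its levels is unknown. Its difference between ESC-PGCLCs and E9.5 PGCs was −90.0 points (log2 odds −10.96 ± 1.39 SE, adjusted p = 0.0020 by limma).

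A few elements ran against the direction of the rest, with PGCs low and cultured cells higher. The L1MdV_I 5′ fragment of bases 173 to 1441 was at 10.9% and 14.6% in E9.5 PGCs and 5.88% and 6.49% in E12.5 PGCs. It was at 57.4% and 49.4% in ESCs, 49.6% and 52.2% in pESCs, 40.1% and 39.1% among ESC-PGCLCs and 39.9% and 37.8% among pESC-PGCLCs. The pESC-PGCLC level exceeded that of E9.5 PGCs by 26.1 points (log2 odds 2.05 ± 0.17 SE, adjusted p = 0.00032 by limma). The near-full-length L1MdF_V element of bases 170 to 5587 was at 37.7% and 33.3% in E9.5 PGCs and 59.9% and 55.1% in pESC-PGCLCs.

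Compared with E12.5 PGCs the PGCLCs were higher. The mean was 9.57 points higher in ESC-PGCLCs, and 3018 elements were called higher (42.2%), compared with 22.2% of all features and 39% of repeats. In pESC-PGCLCs it was 6.29 points higher, and 832 elements were called higher (11.6%), compared with 6.81% of all features and 12% of repeats. The count of calls in pESC-PGCLCs was fragile, since it fell from 848 in both directions to between 0 and 81 when any 1 of the 4 libraries was left out. Calls were more frequent among 5′ fragments (54.3% higher in ESC-PGCLCs) and near-full-length elements (53.8%) than among 3′ fragments (32.4%), a difference that was not tested. Centred on library medians, the calls were 292 higher and 57 lower for ESC-PGCLCs and 19 higher and 13 lower for pESC-PGCLCs.

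In pESC-PGCLCs 16 elements were called lower than in E12.5 PGCs (0.224%), compared with 0.287% of all features and 0.543% of repeats. Some of these elements were low in stem cells. The L1MdN_I 5′ fragment of bases 228 to 648 was at 9.98% and 5.61% in ESCs and 8.54% and 5.62% in pESCs. It was at 80.9% and 81.2% in E9.5 PGCs, 55.6% and 58.8% in E12.5 PGCs and 33.5% and 40.5% in pESC-PGCLCs. The L1MdF_V 5′ fragment of bases 233 to 654, at 5.29% to 6.62% in stem cells, was at 40.5% and 45.9% in E12.5 PGCs and 19.0% and 27.8% in pESC-PGCLCs. Both were called lower in pESC-PGCLCs than in E12.5 PGCs (adjusted p = 0.017 and 0.027 by limma). Leaving out any 1 of those 4 libraries ended both calls.

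Between the 2 kinds of PGCLC the mean difference, pESC origin minus ESC origin, was −3.27 points, and the libraries did not overlap. Limma called 3 of 7149 elements, where 0.0948% of all features were called, and 1579 had an unadjusted p under 0.05. Another transformation gave more calls, with 50 at an offset of 0.1 and 65 on untransformed levels, mostly lower in pESC-PGCLCs. The 3 were the L1MdF_IV 5′ fragment of bases 411 to 527, the L1MdF_IV 3′ fragment of bases 6254 to 6575 and the near-full-length L1MdF_V element of bases 182 to 6593. The last was at 67.4% and 70.7% with ESC origin and 49.2% and 47.6% with pESC origin, and its call was lost without any 1 of the 4 libraries.

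In both L1MdF_IV elements ESC-PGCLCs stood alone. The fragment of bases 411 to 527 was at 100% in both ESC-PGCLC libraries and between 39.1% and 66.7% in the other 10. The fragment of bases 6254 to 6575 was at 0% in both ESC-PGCLC libraries and between 34.7% and 57.8% elsewhere. Each had equal values in the replicates of that group, and the number of reads behind them is unknown. The call between the 2 kinds of PGCLC for bases 411 to 527 was lost without either pESC-PGCLC library.

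To see what induction added, PGCLCs were compared with the stem cells they came from. For most subfamilies the difference was small and for L1MdN_I, singled out for its low level in these stem cells, it was large. Over all older elements the mean difference of ESC-PGCLCs from ESCs was 4.37 points, a value that ran from 0.97 to 7.76 points when 1 library was left out, and that of pESC-PGCLCs from pESCs was 1.47 points (0.87 to 2.07 points with 1 library left out, and 3.64 points when each subfamily had equal weight). For L1MdN_I these differences were 21.2 and 17.5 points, and for near-full-length L1MdN_I 29.6 and 25.6 points. For L1MdV_III they were 11.5 and 8.01 points, and for L1MdF_IV 2.64 and −0.12 points.

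In the comparison of ESC-PGCLCs with ESCs 440 older elements were called higher (6.15%), compared with 13.7% of all features and 14.2% of repeats. Called lower were 45 elements (0.629%), compared with 0.899% of all features. L1MdN_I supplied 98 of the 440, which is 49.0% of that subfamily and 4.92% in the other 12 together, and 56 of the 98 were near-full-length. Because L1MdN_I was singled out for its low level in the same ESC libraries, this count is not separate support. L1MdV_III had 21 of 97 called higher (21.6%). The total of both directions, 485, rose to 1431 without the first ESC library, and was 263 or 221 without an ESC-PGCLC library.

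In the comparison of pESC-PGCLCs with pESCs 249 elements were called higher (3.48%), compared with 8.91% of all features. Called lower were 43 (0.601%), compared with 0.746% of all features. L1MdN_I supplied 91 of the 249 and had 45.5% of its elements called, while the other 12 subfamilies together had 2.27%. This count is not separate support either, since the low level in pESCs was known. The total of both directions, 292, lay between 148 and 192 when any 1 of the 4 libraries was left out. Centring each library on its median reversed the balance in both comparisons. It gave 3444 elements lower and 152 higher for ESC-PGCLCs and 3404 lower and 149 higher for pESC-PGCLCs. Untransformed levels kept the balance, with 488 higher and 57 lower for ESC-PGCLCs and 267 higher and 66 lower for pESC-PGCLCs. The direction of older elements as a whole thus depended on whether levels were taken relative to the library median.

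Among the largest rises were copies that were almost bare in stem cells. The near-full-length L1MdN_I element of bases 228 to 6517 was at 3.48% and 5.04% in ESCs and 3.38% and 4.91% in pESCs. It was at 61.8% and 63.5% among ESC-PGCLCs, 56.8% and 56.2% among pESC-PGCLCs, 78.0% and 78.5% in E9.5 PGCs and 59.8% and 63.3% in E12.5 PGCs. The pESC-PGCLC level exceeded the pESC level by 52.4 points (log2 odds 4.62 ± 0.25 SE, adjusted p = 0.00017 by limma). Stem cells did not overlap with any other group at this element.

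Rises of this size were not limited to L1MdN_I. The L1MdF_III 5′ fragment of bases 226 to 871 rose from 4.94% and 4.51% in ESCs to 64.4% and 62.9% in ESC-PGCLCs (adjusted p = 7.4e-05 by limma). The L1MdF_I 5′ fragment of bases 1 to 639 rose from 6.29% and 3.69% in pESCs to 62.0% and 59.4% in pESC-PGCLCs (adjusted p = 0.00017). All 6 of the largest rises in the 2 comparisons had a 5′ end within the first 1000 bases, and the largest falls, which were 5 elements since 1 was among them in both comparisons, were 3′ fragments. Of all 7149 elements, 3149 start within the first 1000 bases and 3762 are 3′ fragments. The named elements were picked for the size of their change, and the number of reads behind them is unknown. Whether rises and falls differ by position was not tested.

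The element among the largest falls in both comparisons was the L1MdF_IV 3′ fragment of bases 6080 to 6567. It was at 70.2% and 59.8% in ESCs and 68.5% and 59.5% in pESCs. It was at 6.67% and 13% among ESC-PGCLCs, 0% and 7.69% among pESC-PGCLCs, 7.14% and 5.26% in E9.5 PGCs and 0% and 0% in E12.5 PGCs. The level fell by 55.2 points from ESCs and fell by 60.2 points from pESCs (adjusted p = 0.024 and 0.0062 by limma). The first call was lost without any 1 of its 4 libraries, and the second without the first pESC library.

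Whether induction acted differently by origin was tested as an interaction over 8 libraries. Limma called 2 of 7149 elements, where 0.0365% of all features were called, and 112 had an unadjusted p under 0.05. They were the L1MdF_IV fragments of bases 411 to 527 and 6254 to 6575 described above, and no L1MdN_I element was among them.

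The elements with the highest and lowest mean levels over 12 libraries, 3 of each, were all 3′ fragments. The highest element was the L1MdFanc_II 3′ fragment of bases 4341 to 6084, with a mean of 94.1% and a range from 84.7% to 98.8%. The L1MdN_I 3′ fragment of bases 5587 to 5921 followed with 91.6%, and was at 98.9% and 100% in E9.5 PGCs but at 78.3% and 73.0% at E12.5. The lowest was the L1MdMus_II 3′ fragment of bases 6234 to 6569, with a mean of 2.28% and no library above 9.09%.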

How the data were processed

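RRBS levels of 12 libraries were used. Per the submitters' processing notes, reads were aligned to mm10 with Bismark 0.16.3 and Bowtie2, and the study kept unique best alignments and corrected for non-conversion. The authors deposited, for each annotated feature, the fraction of methylated CG calls, shown here as a percentage. Copies too alike for unique alignment may be under-read. The coverage minimum and the repeat annotation are not given in the sources used here, and since the depth behind a level is unknown, no intervals or floors were computed.

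Groups and replicate numbers came from sample titles. Levels were tested in limma 3.58.1 (R 4.3.3) on log2((level + 0.01)/(1 − level + 0.01)) over all features, with pESCs and ESCs in a fit of 4 libraries, PGCs and PGCLCs in one of 8, and PGCLCs and stem cells in another of 8. Calls needed an adjusted p under 0.05 and 10 points. Means and gaps were compared by exact permutation or sign-flip tests (Python 3.11.15, numpy 2.4.6, scipy 1.17.1), and figures were drawn with matplotlib 3.10.9. Code was tested on simulated data. Named elements were up to 3 called rises and 3 falls per comparison, the 3 highest and the 3 lowest. The members, lists and comparisons were chosen with earlier results of these data known.

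No sequence is shown, since the features carry no genomic position and a repeat consensus was not used here. Alternatives were another offset, untransformed levels, centring, repeats only, 1 fit of 12 libraries, a replicate block, medians, equal weight of subfamilies, other bins and leaving out each library.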

Additional observations from a re-analysis of the deposited data

Results flagged for a closer look

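In 2 of 7149 elements (0.028%) the effect of induction differed between cells of ESC and of pESC origin by the test of that difference. The share over all features was 0.0365%, so that such calls were no more frequent among older elements. At the L1MdF_IV fragment of consensus bases 411 to 527 the change from pESCs to pESC-PGCLCs minus the change from ESCs to ESC-PGCLCs was −51.2 points (adjusted p = 0.0049, limma interaction over 8 libraries). ESC-PGCLCs were at 100% and 100%, against 43.7% and 46.1% in ESCs, 42.0% and 39.1% in pESCs and 42.9% and 46.2% in pESC-PGCLCs. The call was lost without any 1 of the pESC or pESC-PGCLC libraries.

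At the L1MdF_IV fragment of bases 6254 to 6575 the difference was 43.8 points (adjusted p = 0.020). ESC-PGCLCs were at 0% and 0%, against 57.8% and 50.7% in ESCs, 52.7% and 54.1% in pESCs and 51.3% and 34.7% in pESC-PGCLCs. The call was lost without any 1 of the ESC, pESC or pESC-PGCLC libraries, and the adjusted p was 0.33 with an offset of 0.1 and 0.49 on untransformed levels. The number of reads behind these levels is unknown, and its part in the result was not tested.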

How the results depend on the processing

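With 2 libraries a group and unknown depth, levels of single elements and low counts of calls are weakly supported. The cause of each change below was not tested. Centring on library medians gave 452 calls for E12.5 against E9.5 PGCs, 308 and 370 for ESC-PGCLCs and pESC-PGCLCs against E9.5, 349 and 32 against E12.5, and 3596 and 3553 against ESCs and pESCs. In 1 fit of 12 libraries calls were 1808 and 26 against E12.5 PGCs, 782 for ESC-PGCLCs against ESCs and 1 for pESCs against ESCs. Between PGCLCs an offset of 0.1 gave 50 calls and untransformed levels 65, and for the interaction each gave 1. Neither centring nor repeats only was run for the interaction. Medians over elements moved the differences from E9.5 to −19.8 (E12.5), −9.65 and −13.4 points, that of ESC-PGCLCs from E12.5 to 10.2 and that between PGCLCs to −3.77. Equal weight of subfamilies gave −19.2, −9.54 and −13.2 points from E9.5, and 3.64 for pESC-PGCLCs from pESCs.

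The difference of pESCs from ESCs turned positive without pESC replicate 2 (0.22 points) or ESC replicate 1 (3.02 points), within −3.77 to 3.02 points. Leaving out 1 library at a time, calls ran from 0 to 14 for pESCs against ESCs, 0 to 81 for pESC-PGCLCs against E12.5 PGCs, 1 to 25 between PGCLCs (25 without ESC-PGCLC replicate 1), 221 to 1431 for ESC-PGCLCs against ESCs, 148 to 192 for pESC-PGCLCs against pESCs and 0 to 12 for the interaction (12 without ESC-PGCLC replicate 1). For E12.5 against E9.5 PGCs they ran from 6178 to 6225. For the 45 results on single named elements, 127 of these refits kept the call and 61 lost it.

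The libraries of 2 groups share only a replicate number. Deviations of same-numbered libraries correlated at 0.40 between ESCs and pESCs and between −0.03 and 0.07 in the other comparisons. With a replicate block the calls were 6520 for E12.5 against E9.5 PGCs, 581 for pESC-PGCLCs against E12.5 PGCs, 305 for pESC-PGCLCs against pESCs, 2 between PGCLCs and 0 for pESCs against ESCs, and 2 of 45 named calls were lost.

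The near-full-length L1MdN_I gap in stem cells and its alternatives were chosen after seeing the data. It was −34.6 points, −40.9 as a difference of medians and −32.2 with a start up to 500 and an end over 6000, and ran from −35.1 to −34.2 with 1 library left out.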
